A study of Mus musculus with 18 samples.

Results

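The genes described here encode voltage-gated sodium channels, and were measured in dorsal root ganglia (DRG) and epidermis of mice with and without deletion of Trpa1 from keratinocytes. The members were Scn1a, Scn3a, Scn7a, Scn8a, Scn9a, Scn10a and Scn11a, which encode pore-forming alpha subunits, and Scn2b and Scn4b, which encode auxiliary beta subunits. A probe set (the group of array probes summarised into 1 value) was taken where the platform annotation paired it with 1 of these genes and no other. This gave 10 probe sets of 9 genes, out of 35556 probe sets in all, of which 23410 were paired with at least 1 gene. Scn9a had 2 probe sets, 10483324 and 10483326, and each other member had 1. Counts of members out of 10 are counts of these probe sets. A further 3 probe sets that the annotation shared between a member and another gene were left out.

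Voltage-gated sodium channels carry the inward current of the action potential. Each channel has 1 alpha subunit, and beta subunits change its gating and its placement in the membrane. In sensory neurons the isoforms are divided among cell types. Scn9a (Nav1.7), Scn10a (Nav1.8) and Scn11a (Nav1.9) are known for their part in nociceptors, the neurons that detect painful stimuli. Scn1a (Nav1.1) and Scn8a (Nav1.6) are found mainly in neurons with myelinated axons, where Nav1.6 is the main channel of the node of Ranvier. Scn3a (Nav1.3) is mostly expressed before birth, and Scn7a encodes Nax, a relative that responds to sodium concentration and does not open with voltage like the others.

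The mutant mice were K14Cre-Trpa1 fl/fl and the control mice, called wild type in the sample labels, were K14Cre-Trpa1 +/+, so both carried Cre. The K14 promoter drives Cre in basal keratinocytes, which leaves Trpa1 of DRG neurons outside the intended deletion. The loxP sites flank exons for the channel pore. The study used adult males of a mixed background (C57BL/6, CBA and Swiss Webster). Its control and mutant colonies were bred separately, and the labels name no littermates among the arrays, so genotype and colony cannot be told apart. Lumbar ganglia came from naive mutant and naive control mice. Hindpaw epidermis, peeled off after dispase, came from mutant and control mice on the second day after injection of complete Freund's adjuvant (CFA, an inflammatory agent), and from naive mutant and naive control mice. Each of these 6 groups had 3 arrays, described as biological replicates, 18 arrays in all. None is labelled as coming from vehicle-injected mice, so the effects of the adjuvant and of the injection cannot be told apart.

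The arrays carried no read depth. Values are log2 signals after normalisation by the authors, and the number of arrays limits the precision. Within a group, pairs of DRG arrays correlated with r of 0.994 to 0.997 across all probe sets. The mean signal per array differed between the tissues, so they were treated as normalised apart and no value was tested between them, and signals of different probe sets are not set against each other. A probe set was counted as above background on an array when it exceeded the 95th percentile of the 1210 probe sets for odorant and vomeronasal receptors, genes of the olfactory organs, on the same array. On DRG arrays this background lay at 5.77 to 5.92 in the mutants and 5.83 to 5.94 in the controls. The 10 pan-neuronal markers were above it on all 6 DRG arrays, and the 9 measured keratinocyte markers were above background on all 12 epidermal arrays. Trpa1 was 8.61 ± 0.21 in mutant DRG and 8.99 ± 0.10 in control DRG (SD, n = 3 each, limma adjusted p = 0.482). Every mutant DRG array was below every control DRG array for Trpa1, beside 6.77% of all probe sets in that direction. On all 12 epidermal arrays Trpa1 was below background. Where the Trpa1 probes lie relative to the deleted exons was not given, so its value does not check the genotype labels. Krt14, whose promoter drives Cre, was 5.95 ± 0.22 in mutant DRG, above background on 2 of 3 arrays, and 5.91 ± 0.27 in control DRG, above background on 1 of 3.

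The promoter windows of Scn8a, Scn4b, Scn10a and Scn11a are shown because these genes carry the patterns described below. Scn8a and Scn4b varied most between DRG arrays. The deviations of Scn10a and Scn11a differed least from each other, by a measure that favours members that vary little. Each window runs from 250 bases before to 50 bases after the annotated start (RefSeq, GRCm38.p6), on the strand of the gene and from 5′ to 3′, with each CpG dinucleotide in capitals. The Scn8a window is its first of 2 and lies at chr15:100870395-100870694 (plus strand), that of Scn4b at chr9:45138374-45138673 (plus strand), that of Scn10a at chr9:119718983-119719282 (minus strand) and that of Scn11a at chr9:119825407-119825706 (minus strand).
Scn8a: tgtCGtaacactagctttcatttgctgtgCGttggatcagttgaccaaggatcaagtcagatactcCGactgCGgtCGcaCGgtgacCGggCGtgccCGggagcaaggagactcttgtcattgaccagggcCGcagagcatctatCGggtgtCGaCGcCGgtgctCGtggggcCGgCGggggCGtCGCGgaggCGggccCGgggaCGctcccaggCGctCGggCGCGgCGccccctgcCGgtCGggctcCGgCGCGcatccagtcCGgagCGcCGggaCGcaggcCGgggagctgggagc
Scn4b: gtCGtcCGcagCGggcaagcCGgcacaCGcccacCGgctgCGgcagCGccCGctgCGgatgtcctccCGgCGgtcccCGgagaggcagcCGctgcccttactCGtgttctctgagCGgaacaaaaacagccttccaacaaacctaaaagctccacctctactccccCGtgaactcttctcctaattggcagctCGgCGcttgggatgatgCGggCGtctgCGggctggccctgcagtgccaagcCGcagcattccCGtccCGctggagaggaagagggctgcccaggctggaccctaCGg
Scn10a: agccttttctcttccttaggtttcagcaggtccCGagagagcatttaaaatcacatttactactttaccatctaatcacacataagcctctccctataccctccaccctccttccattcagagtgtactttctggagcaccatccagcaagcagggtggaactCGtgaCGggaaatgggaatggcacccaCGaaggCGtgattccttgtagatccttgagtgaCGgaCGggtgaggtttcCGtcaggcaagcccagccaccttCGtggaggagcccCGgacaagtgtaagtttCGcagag
Scn11a: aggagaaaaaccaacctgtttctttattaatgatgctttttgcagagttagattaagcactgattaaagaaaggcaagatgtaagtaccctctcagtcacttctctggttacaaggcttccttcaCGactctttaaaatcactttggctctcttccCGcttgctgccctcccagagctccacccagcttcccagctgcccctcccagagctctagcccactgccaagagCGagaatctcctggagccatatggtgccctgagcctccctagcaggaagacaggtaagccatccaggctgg

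These windows differ in CpG content. The Scn8a window held 38 CpG, more than 95.05% of the 32851 promoter windows in the table, and the Scn4b window held 26, more than 83.1%. The Scn10a window held 11 and the Scn11a window 3, around a median of 7 over all windows. Among the other members, the windows of Scn9a, Scn1a, Scn7a and Scn2b held 9, 5, 3 and 2 CpG, and the second Scn8a window held 12. Scn3a had none in the table. The TATA box letters TATAAA were absent from all 9 member windows on both strands and present in 13.6% of all windows. The letters GGGCGG, the core of the GC box bound by SP1, occurred in the Scn7a window alone among the members and in 35.7% of all windows. These are matches of letters and were not tested as binding sites.

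The members also lie in 2 clusters. On chromosome 2, Scn3a neighbours Scn2a, and Scn1a, Scn9a and Scn7a follow one another with no other protein-coding gene between them. On chromosome 9, Scn2b neighbours Scn4b, and Scn10a neighbours Scn11a. Scn8a stands alone on chromosome 15.

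In DRG, the question was whether the ganglia of mutant mice expressed the channels at the same level as control ganglia. The deletion of Trpa1 was aimed at keratinocytes and not at neurons. All 10 member probe sets were above background on all 6 arrays, with the smallest margin, 0.29 log2 units, for Scn3a. By limma, 0 of the 10 differed between genotypes at an adjusted p under 0.05, beside 0.0726% of the 23410 probe sets tested. At an unadjusted p under 0.05, 1 of 10 was found, beside 7.15% of all, and an ordinary analysis of variance also called 0. The groups were separate for 1 member, Scn4b, with every mutant array above every control array, beside 11.8% of all probe sets separate in either direction and 5.01% with the mutant higher. The log2 difference was positive for 9 of 10 member probe sets, both Scn9a probe sets among them, with a median of 0.12, against 0.00 over all probe sets. The probe sets share the shifts of the same 6 arrays, so these signs are not independent. In ganglia, fewer cells of a type and less RNA per cell cannot be told apart.

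**Figure D1:**
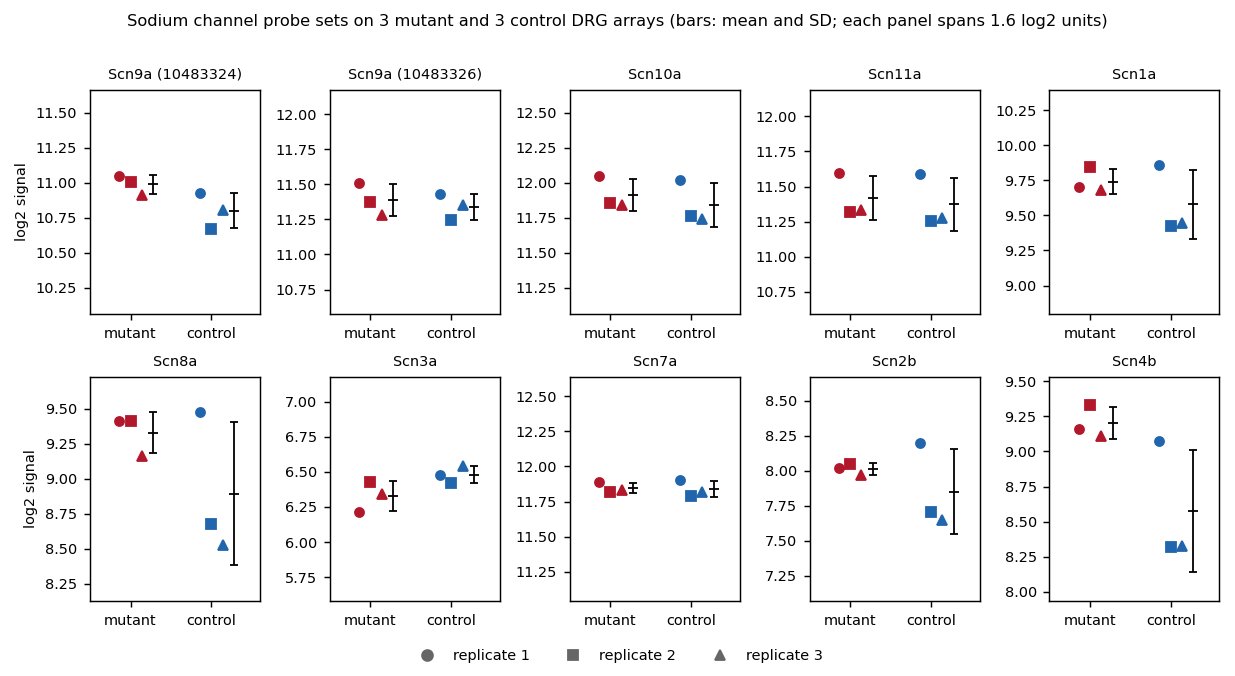
Log2 signal of each member probe set on the 3 mutant (left) and 3 control (right) DRG arrays, marker shape giving the replicate number, with the group mean and SD beside the points. All panels span the same range; control replicate 1 lies near the mutants for Scn8a (9.47) and Scn4b (9.08), and the other controls lie at 8.32 to 8.68 for these genes.

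The nociceptor channels differed little. Scn10a measured 12.05, 11.85 and 11.84 in mutant DRG and 12.02, 11.76 and 11.74 in control DRG, a log2 difference of 0.07 (95% interval -0.15 to 0.30, limma adjusted p = 0.879). Scn11a measured 11.60, 11.32 and 11.33 in mutant DRG and 11.59, 11.26 and 11.27 in control DRG, a difference of 0.04 (-0.22 to 0.30, limma adjusted p = 0.947). For both genes the high array was replicate 1 of each genotype, by 0.20 and 0.27 over the mean of the other mutants and by 0.27 and 0.33 over the mean of the other controls, and the genotypes overlapped. Scn9a measured 11.04, 11.01 and 10.91 in mutant DRG and 10.93, 10.67 and 10.81 in control DRG with probe set 10483324, a difference of 0.19 (-0.0031 to 0.38, limma adjusted p = 0.702). With probe set 10483326 it measured 11.51, 11.38 and 11.28 in mutant DRG and 11.43, 11.24 and 11.35 in control DRG, a difference of 0.05 (-0.14 to 0.24, limma adjusted p = 0.915). Over the 4 probe sets, the highest upper bound of the interval was 1.30-fold.

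The channels of myelinated neurons varied more. Scn8a measured 9.41, 9.41 and 9.16 in mutant DRG and 9.47, 8.68 and 8.53 in control DRG. Its mean was 9.33 ± 0.15 in mutants and 8.89 ± 0.51 in controls (SD, n = 3 each), a log2 difference of 0.44 (-0.06 to 0.93, limma adjusted p = 0.715). Control replicate 1 was the highest of the 6 arrays and the other controls were the lowest, so the groups overlapped through this one array. Scn1a measured 9.70, 9.84 and 9.68 in mutant DRG and 9.86, 9.43 and 9.45 in control DRG, a difference of 0.16 (-0.11 to 0.43, limma adjusted p = 0.762), with the same array apart from the other controls.

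Of the beta subunits, Scn4b encodes the subunit known for its part in resurgent sodium current, which supports fast firing. It measured 9.16, 9.33 and 9.11 in mutant DRG and 9.08, 8.32 and 8.33 in control DRG. The means were 9.20 ± 0.11 in mutants and 8.57 ± 0.44 in controls (SD, n = 3 each), and the log2 difference of 0.63 (0.20 to 1.05), or 1.54-fold, was not called (limma adjusted p = 0.510). It was the 1 member with an unadjusted p under 0.05. Scn2b, whose subunit is joined to alpha subunits by a disulfide bond, measured 8.02, 8.05 and 7.97 in mutant DRG and 8.20, 7.70 and 7.65 in control DRG. Its difference was 0.16 (-0.14 to 0.47, limma adjusted p = 0.786), and control replicate 1 was again above the 3 mutants and the other controls below them.

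Scn7a had the smallest difference of the members. It measured 11.89, 11.82 and 11.83 in mutant DRG and 11.90, 11.79 and 11.82 in control DRG, a log2 difference of 0.01 (-0.14 to 0.16, limma adjusted p = 0.985). Scn3a was the member with a negative difference, at 6.22, 6.43 and 6.34 in mutant DRG and 6.48, 6.42 and 6.54 in control DRG (-0.15, interval -0.33 to 0.03, limma adjusted p = 0.717). One control array lay below the highest mutant, so the groups overlapped.

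**Figure D2:**
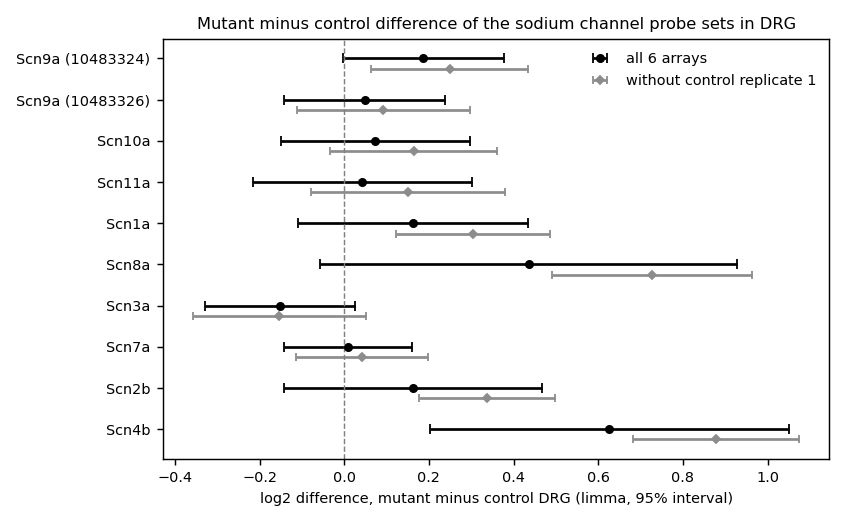
Mutant minus control difference in DRG on the log2 scale for each member probe set, with limma's 95% interval, from all 6 arrays (black) and without control replicate 1 (grey). With all arrays the interval lies above 0 for Scn4b alone (0.20 to 1.05). Without control replicate 1, Scn8a (0.49 to 0.96) and Scn4b (0.68 to 1.07) lie farthest from 0. That array was the highest control for both genes, so leaving it out was bound to widen their differences.

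The differences between arrays of the same genotype were large for some members and small for others. The SD within genotype was 0.37 for Scn8a and 0.32 for Scn4b, at the 99.4th and 98.96th percentiles of the 16016 probe sets above background on all 6 DRG arrays, against a median of 0.10. Scn2b and Scn1a were at the 95.05th and 91.2th percentiles, and Scn7a was at the 10.8th. Control replicate 1 exceeded the mean of the other 2 controls by 0.87 for Scn8a, 0.75 for Scn4b, 0.52 for Scn2b and 0.42 for Scn1a. It was the highest control for 9 of 10 members, Scn3a being the exception, beside 38% of the probe sets above background.

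The call for Scn8a and Scn4b turned on this array. It was the highest control for both genes, so leaving it out was bound to widen their differences. The p-values without it describe this dependence and are not evidence of a difference. Without control replicate 1, the log2 difference was 0.73 for Scn8a (0.49 to 0.96, 1.65-fold, limma adjusted p = 0.0329) and 0.88 for Scn4b (0.68 to 1.07, 1.84-fold, limma adjusted p = 0.0109). Then 2 of the 10 members passed, beside 0.867% of all probe sets in either direction and 0.598% with the mutant higher. Scn2b (0.34, limma adjusted p = 0.0692) and Scn1a (0.30, limma adjusted p = 0.113) did not. The 3 mutant arrays lay above both other controls for 8 of 10 members and for 22.8% of the probe sets above background.

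Markers of myelinated neurons moved with these channels, and so did some markers of other neurons. The mean of the 9 measured of 10 listed markers was 10.15, 10.17 and 10.11 in mutant DRG and 10.19, 9.88 and 9.88 in control DRG. Nefm, the medium neurofilament, measured 11.58, 11.64 and 11.45 in mutant DRG and 11.70, 11.13 and 10.93 in control DRG, with control replicate 1 again the highest. Control replicate 1 was above both other controls for 8 of the 9 markers, Pvalb being the exception, and 0 of the 9 differed between genotypes by limma. The mean of the 10 pan-neuronal markers was 11.29, 11.24 and 11.20 in mutant DRG and 11.32, 11.12 and 11.15 in control DRG. Among them, control replicate 1 exceeded the mean of the other controls by 0.59 for Rbfox3, more than for most myelinated markers. For Gap43 (-0.12) and Stmn2 (-0.02) it lay below that mean. Fibroblast and meningeal markers (6 of 6 measured) averaged 8.93, 9.17 and 9.25 in mutant DRG and 8.87, 9.42 and 9.20 in control DRG, with the lowest value on control replicate 1. The part of these shifts in the channel values was not tested.

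Markers listed for nociceptors and other unmyelinated neurons were divided, and whether each is confined to those cells was not tested. Mrgprd, the receptor of a class of nonpeptidergic nociceptors, measured 10.53, 10.32 and 10.43 in mutant DRG and 10.54, 10.29 and 10.31 in control DRG, with replicate 1 high in both genotypes as for Scn10a and Scn11a. Trpv1, the capsaicin receptor, measured 9.63, 9.47 and 9.56 in mutant DRG and 9.81, 9.89 and 10.09 in control DRG, and the groups did not overlap. For Gfra2 and Ret, control replicate 1 exceeded the mean of the other controls by 0.47 and 0.43, in the direction seen for Scn8a and Scn4b. Their mutant means lay 0.48 and 0.36 above that mean, and the mutant mean of Mrgprd 0.13 above it. For P2rx3, Tac1, Th, Trpa1 and Trpv1 the mutant mean lay below it, with differences of -0.04 to -0.43. Of the 8 measured markers, 4 had all mutant arrays below all control arrays, 0 had the reverse and 0 passed limma's test. Over all probe sets, 6.77% had all mutant arrays below all control arrays.

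**Figure D3:**
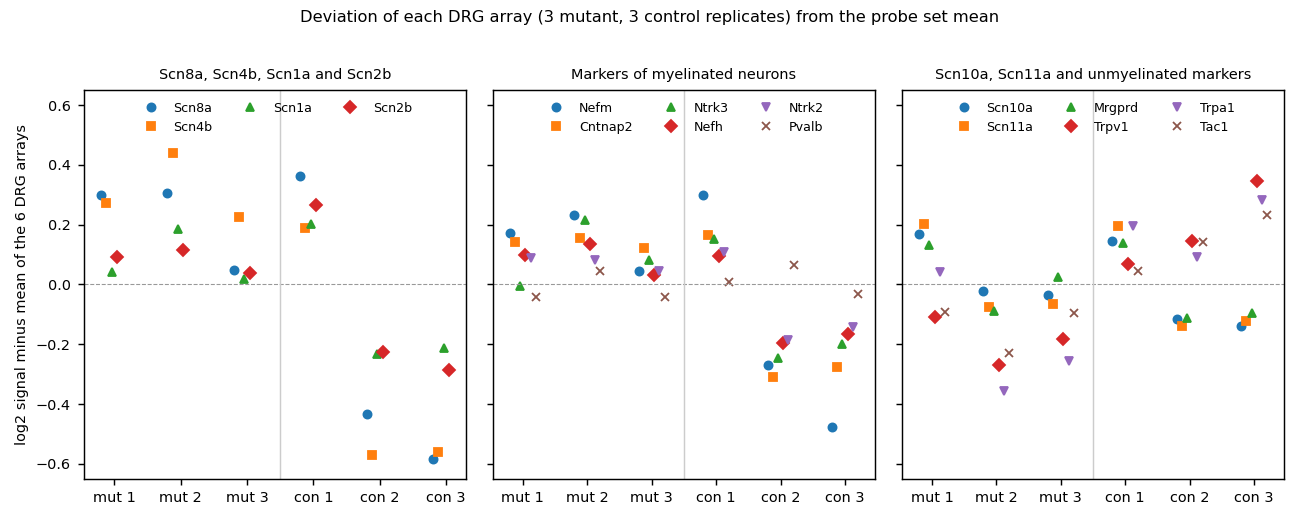
Log2 signal of each DRG array minus the mean of the 6 arrays, for Scn8a, Scn4b, Scn1a and Scn2b (left), 6 markers of myelinated neurons (middle), and Scn10a and Scn11a with 4 markers of unmyelinated neurons (right), mutant arrays before control arrays. In the left panel control replicate 1 lies 0.19 to 0.36 above the mean and the other controls 0.21 to 0.59 below it. The measured markers listed for unmyelinated neurons but not shown are Gfra2, Ret, P2rx3 and Th. Of these, Gfra2 and Ret shifted in the direction of the left panel, with control replicate 1 above the mean of the other controls by 0.47 and 0.43.

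Keratinocyte markers, which should be scarce in ganglia, were raised on 2 DRG arrays. The mean of the 9 measured was 6.40, 5.83 and 5.85 in mutant DRG and 5.67, 5.82 and 6.05 in control DRG, with 7, 5 and 4 of them above background in mutants and 4, 4 and 6 in controls. With mutant replicate 1 and control replicate 3 left out together, the difference was 0.52 for Scn4b and 0.21 for Scn8a (limma adjusted p = 0.999 for each).

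Pairs of members were compared by the root mean square of the difference between their deviations over the 6 DRG arrays, each taken from its own mean, as a description with no test. The closest pair was Scn10a and Scn11a (0.036), chromosomal neighbours that are both expressed in nociceptors, followed by Scn1a and Scn2b (0.053). The 2 probe sets of Scn9a, which read the same gene, were 0.079 apart. Scn8a was closer to Scn4b (0.129) than to any other member. The measure was not scaled by each member's own spread, so its ranking favours members that vary little. That spread (root mean square about the member's mean) was 0.12 for Scn10a and 0.14 for Scn11a, against 0.38 for Scn8a, 0.41 for Scn4b and 0.04 for Scn7a. Among the genes compared (15084 or 15085 for each member), the pattern nearest to Scn10a was that of Fgf13 (0.014), which encodes a cytosolic partner of sodium channels, and then B4galnt4 (0.018). The nearest to Scn11a were Bcam (0.025) and Scn10a, to Scn8a Ubqln2 (0.043) and Camta1 (0.050), to Scn4b Fbxo44 (0.044) and Zdhhc18 (0.054), to Scn1a Sae1 (0.014) and Pdk3 (0.020), and to Scn2b Eif4g3 (0.014) and Dynll2 (0.018). For Scn7a they were Fbxo10 (0.0065) and Clpb (0.012), for Scn3a Snord42b (0.015) and Gabpa (0.027), and for the 2 Scn9a probe sets Cat (0.016) and Mon1b (0.018), and Tmem130 (0.0079) and Azin2 (0.020). The 6 arrays share their overall shifts, and the share of compared genes that lay within 0.5 of a member's own spread ran from 0.259% for Scn7a to 6.55% for Scn2b.

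Relatives and partners of the channels were taken from a list of 40 genes, of which 33 had a probe set of their own. All 33 were above background on every DRG array, and by limma 0 differed between genotypes in DRG. The median log2 difference was 0.06, with 25 of 33 positive, against 0.00 over all probe sets. The smallest p-values were those of Scn2a, Cntnap2, Ncstn and Nfasc (limma adjusted p = 0.628, 0.693, 0.702 and 0.711). Cntnap2 encodes Caspr2 of the juxtaparanode, Nfasc encodes neurofascin, which anchors channels at the node, and Ncstn encodes a subunit of gamma-secretase, which cleaves beta subunits. Their log2 differences were 0.28, 0.31 and 0.25.

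Scn2a, the alpha subunit Nav1.2 and the chromosomal neighbour of Scn3a, went the other way. Its probe set with the list measured 8.74, 8.68 and 8.84 in mutant DRG and 8.91, 8.95 and 9.05 in control DRG, a log2 difference of -0.21 (-0.38 to -0.05). It had 14 probe sets of its own, which read 1 transcript and are not independent. All 14 were lower in mutants, by a median of -0.21, and 7 had no overlap between the groups, beside 6.77% of all probe sets separate in that direction, with limma adjusted p between 0.286 and 0.971. Scn3b, the third beta subunit measured, averaged 9.88 ± 0.10 in mutant DRG and 9.96 ± 0.07 in control DRG (SD, n = 3 each, limma adjusted p = 0.811).

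In epidermis, the question was whether keratinocytes or the nerve endings among them gave a sodium channel signal at all. Of the 10 member probe sets, 8 were above background on 0 of 12 arrays. Of the 120 member values, 7 (5.83%) were above background, where 5% of the receptor probe sets themselves lie by construction. The other 2 probe sets were Scn2b, above background on 5 arrays, and Scn10a, on 2. Scn7a lay farthest below the background, with a mean margin of -1.90 log2 units, and the Scn9a probe set 10483326 lay closest among those never above it (-0.26). Neuronal markers were divided here. Of 10 pan-neuronal markers, 3 were above background on all 12 arrays and 1, Elavl4, on none, with 5 to 8 of the 10 above it on each array. Of the 9 measured markers of myelinated neurons, 4 were above background on all 12 arrays and 5 (Nefl, Nefm, Ntrk3, Pvalb and Cntnap2) on none.

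**Figure D4:**
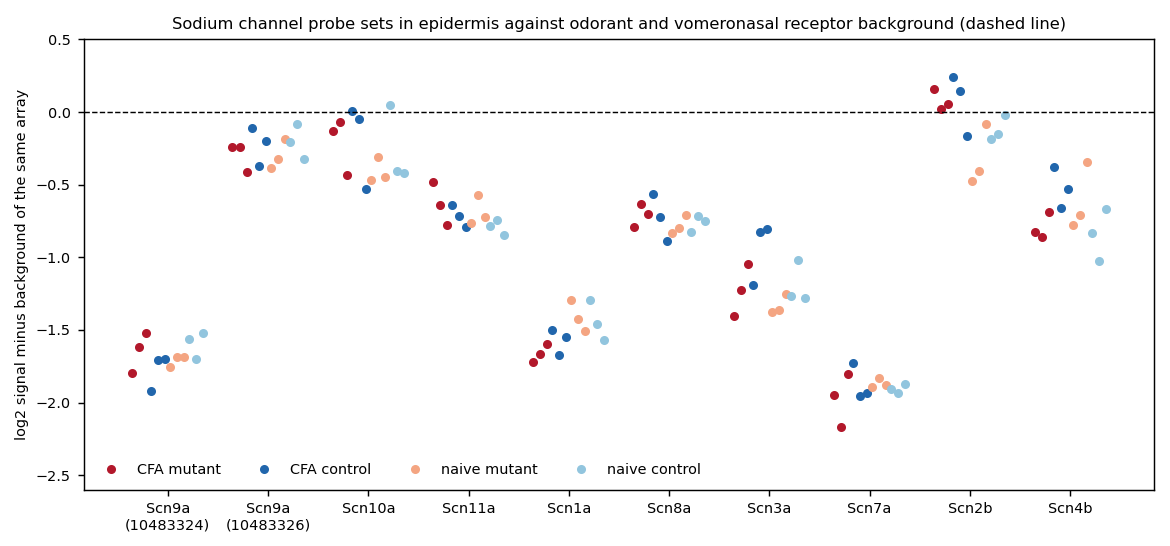
Log2 signal of each member probe set minus the receptor background of the same array (dashed line at 0), for 3 arrays each of CFA mutant, CFA control, naive mutant and naive control epidermis. Scn2b exceeds the background on 3 of 3 CFA mutant and 2 of 3 CFA control arrays, and Scn10a on 1 CFA control and 1 naive control array.

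Between genotypes no member differed. By limma, 0 of 10 were called in CFA epidermis (0.179% of all probe sets called) and 0 of 10 in naive epidermis (0.0299%), with 2 and 0 at an unadjusted p under 0.05, beside 8.96% and 8.94% of all. In CFA epidermis these 2 were Scn3a and Scn4b (limma adjusted p = 0.555 and 0.552), both below background in each genotype. Every CFA mutant array was below every CFA control array for Scn4b, the 1 member without overlap, beside 5.6% of all probe sets in that direction and 14.3% in either. In naive epidermis 0 members were without overlap, beside 16.6%. An ordinary analysis of variance called 0 members in both.

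Much of the epidermal profile differed between CFA and naive mice, and the members' counts are read against that. In mutant epidermis limma called 1 of 10 members, Scn2b, beside 26% of all probe sets and 12.9% with CFA higher. At an unadjusted p under 0.05 there were 3 of 10, beside 38.4%. Every CFA array was above every naive array for 2 members and below for 1, beside 24% and 19.5% of all probe sets, or 43.5% together. In control epidermis limma called 2 of 10, Scn3a and Scn4b, both higher with CFA, beside 26.3% of all and 11.5% with CFA higher. At an unadjusted p under 0.05 there were 4 of 10, beside 38.8%, and 4 had every CFA array above every naive array, beside 21.7% higher and 43.8% in either direction. The receptor probe sets that serve as background were themselves called at 6.53% in mutants and 7.85% in controls.

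Scn2b measured 4.94, 4.78 and 4.77 in CFA mutant epidermis, all just above background, and 4.10, 4.29 and 4.56 in naive mutant epidermis, all below it. The mean CFA signal was 1.14-fold above the background of the naive arrays (CFA against naive, limma adjusted p = 0.0139). The background itself was 4.72 to 4.78 on the CFA mutant arrays and 4.58 to 4.69 on the naive mutant arrays, so that fold includes this shift. Over the background of its own arrays, the CFA signal was higher by 0.08 log2 units on average. In control epidermis it measured 5.03, 4.86 and 4.54 with CFA, above background on 2 of 3 arrays, and 4.41, 4.43 and 4.60 in naive mice (limma adjusted p = 0.0913). The effect of CFA on Scn2b was not shown to differ between genotypes (interaction, limma adjusted p = 0.841).

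Scn4b measured 4.41, 4.06 and 4.17 in CFA control epidermis and 3.76, 3.55 and 3.95 in naive control epidermis (limma adjusted p = 0.0289). Scn3a measured 3.60, 3.89 and 3.90 in CFA control epidermis and 3.33, 3.56 and 3.34 in naive control epidermis (limma adjusted p = 0.0336). Neither gene was above background on any of these arrays, so no fold is given. With each control array left out in turn, CFA or naive, 0 or 1 of the members was called. In mutant epidermis Scn4b measured 3.95, 3.90 and 4.04 with CFA and 3.80, 3.98 and 4.30 in naive mice (limma adjusted p = 0.742), and these groups overlapped. In the test of whether the CFA effect differed between genotypes 0 of 10 members were called, beside 0.0256% of all probe sets. There, 1 of 10 had an unadjusted p under 0.05, beside 8.26%, and this was Scn4b (limma adjusted p = 0.486).

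Partners that also serve other proteins were readily measured in epidermis. Of the 33 listed genes, 19 were above background on all 12 epidermal arrays and 7 on none, among them Scn3b, Cntn1, Cntnap2 and Nrcam. With CFA, limma called 7 higher and 4 lower in mutant epidermis, and 3 higher and 2 lower in control epidermis. These counts stand beside the 26% (mutants) and 26.3% (controls) of all probe sets called, and nothing particular to the list is read from them. Nedd4, a ubiquitin ligase that can act on sodium channels, was 11.11 ± 0.08 with CFA and 10.58 ± 0.05 without in mutants (limma adjusted p = 0.00159), and 11.15 ± 0.09 with CFA and 10.59 ± 0.05 without in controls (SD, n = 3 each, limma adjusted p = 0.00143). Nedd4l rose in both (0.38 in mutants and 0.39 in controls, limma adjusted p = 0.0179 and 0.0347), and Mapk14, the p38 kinase, fell in both (-0.42 and -0.44, limma adjusted p = 0.0156 and 0.0163). The mutants further had higher Sptbn4 (0.41), Sptbn1 (0.31), Nfasc (0.39) and Ank3 (0.32), spectrin, neurofascin and ankyrin genes, and lower Ncstn (-0.49) and Atp1b1 (-0.998), with limma adjusted p from 0.00285 to 0.0443. Cntn1 and Nrcam were called there too, while below background on every array. The controls further had higher Bace1 (0.72), the protease that also cuts beta subunits, and lower S100a10 (-0.54), which carries Nav1.8 to the membrane (limma adjusted p = 0.0021 and 0.00256). The calls of Nedd4 in both genotypes, Ncstn and Sptbn4 in mutants and Bace1 and S100a10 in controls held with each array left out in turn. Those of Nedd4l and Mapk14 in both genotypes, and of Sptbn1, Nfasc, Ank3 and Atp1b1, were each lost without at least 1 array. Between genotypes 0 of 33 were called in CFA or naive epidermis, and 0 differed in their CFA effect.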

How the data were processed

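The authors made labelled cDNA from total RNA and hybridised it to Affymetrix Mouse Gene 1.0 ST arrays. The deposited values are log2 signals after RMA (background correction, quantile normalisation and probe summary), run with Partek per the labels. The value table has 18 columns, each mapped to 1 sample, with 0 missing values.

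Probe sets were paired with genes through the platform annotation. Each comparison was fitted with limma 3.58.1 in R 4.3.3 (lmFit and eBayes, two-sided) on the arrays of its own groups, with the Benjamini-Hochberg method applied to the p-values of 23410 probe sets paired with at least 1 gene. A probe set was called where the adjusted p was below 0.05. The difference between genotypes in the CFA effect was an interaction over the 12 epidermal arrays. The limma script was tested on simulated data. The study's methods name analysis of variance, which was run as an alternative, beside quantile normalisation, median centring, filters, moderation options, the replicate number as a block and leaving out arrays.

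The named genes are all members, listed partners that were called or had the 4 smallest p in DRG, the 2 genes closest to each member in pattern, Trpa1 and the cell type markers used beside a result. Members and lists were chosen with earlier results of these data known. Promoter windows come from RefSeq (GRCm38.p6), and 8 of the 9 members were matched.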

Additional observations from a re-analysis of the deposited data

How the results depend on the processing

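The count of members called in DRG was 0 under every alternative that kept all arrays, and between 0 and 2 when each array was left out in turn, the 2 (Scn8a and Scn4b) coming without control replicate 1. No alternative called a member between genotypes in naive or CFA epidermis or in the genotype difference of the CFA effect. In control epidermis, CFA against naive, the count of 2 became 1 with a further quantile normalisation or with arrays centred on their medians, and 0 with only probe sets above background (which drops Scn3a and Scn4b from the test), with all probe sets of the table or with an ordinary analysis of variance. It was 0 to 1 when each array was left out. In mutant epidermis the count of 1 became 0 with an ordinary analysis of variance and was 1 to 2 when each array was left out, with Scn10a added without CFA mutant replicate 3.

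With the median of the receptor probe sets as background, 8 members were above it on every array of each of the 4 epidermal groups. With the 99th percentile, 0 were in CFA mutant epidermis, and 9 were in each DRG group. Without CFA control replicate 3, 1 member (Scn2b) was above background on the remaining CFA control arrays.

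Small DRG differences changed sign. Without both DRG arrays with more keratinocyte transcripts, an alternative chosen after seeing the data, the log2 difference was -0.0446 for Scn10a, -0.098 for Scn11a, -0.0224 for Scn7a and -0.0063 for the Scn9a probe set 10483326. With each array left out it ran from -0.0479 to 0.151 for Scn11a, -0.0140 to 0.0412 for Scn7a, -0.0112 to 0.10 for the Scn9a probe set 10483326, 0.25 to 0.73 for Scn8a and 0.50 to 0.88 for Scn4b. The cause of these changes was not tested.

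Replicate numbers are shared between groups. In DRG, same-numbered arrays correlated in their deviations from the group means with r of 0.18, -0.05 and 0.15, and differently numbered ones with -0.27 to 0.17. The labels do not say what equal numbers share, so the numbers were not taken as pairs. Over all probe sets between genotypes, the replicate block raised limma's calls from 17 to 51 in DRG and from 42 to 289 in CFA epidermis. It lowered them from 7 to 0 in naive epidermis, and from 6 to 4 for the genotype difference in the CFA effect. With the replicate block, 0 members were called in DRG (limma adjusted p = 0.289 for Scn4b and 0.462 for Scn8a), 2 in control epidermis and 1 in mutant epidermis with CFA, and the calls did not change. With 3 arrays per group, limma's p-values set each difference against the spread between these arrays, moderated over all probe sets tested. They do not cover variation beyond these arrays, and changes in low signals near background are understated.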
